A study of Mus musculus with 16 samples.

Results

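Clustered protocadherins are cell-surface adhesion proteins of the cadherin superfamily, encoded in mouse by the alpha, beta and gamma gene clusters, which lie next to each other. In the alpha and gamma clusters each member has a variable exon with its own promoter, which is spliced to constant exons shared by the whole cluster, whereas each beta member is a single exon of its own. Neurons use different combinations of variable exons, and the proteins bind their own kind on other membranes, which gives a neuron a surface identity used in self-avoidance, dendrite branching and synapse formation. The C-type members at the end of the alpha and gamma clusters are known to be used more widely among neurons than the other variable exons.

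The members were all gene names of the deposited abundance tables that start with Pcdha, Pcdhb or Pcdhg followed by a digit or by a, b or c. This rule found 59 of 24421 gene names, with 15 in the alpha, 22 in the beta and 22 in the gamma cluster, and the same 59 names in each of the 16 libraries. The RNA came from the dentate gyrus, the part of the hippocampus where neurons are born in adult life, of male C57BL/6 mice aged 1 year. The groups were wild-type sedentary (p16 WT CTL), p16Ink4a knockout sedentary (p16 KO CTL), wild-type running (p16 WT RUN) and knockout running (p16 KO RUN), and running lasted 12 days. p16Ink4a is an inhibitor of cyclin-dependent kinases, and the knockout lacks it in every cell while keeping the overlapping p19Arf gene functional. The knockout line was bred from FVB onto C57BL/6 over several generations, and remaining FVB sequence was not examined. Each group had 4 libraries, numbered in the labels 1 to 4 for p16 WT CTL, 5 to 8 for p16 KO CTL, 9 to 12 for p16 WT RUN and 13 to 16 for p16 KO RUN. Each library pooled the tissue of a pair of mice, and variation from animal to animal is therefore not seen. The p-values measure the spread among these pools. In bulk tissue, fewer cells of a type and less RNA per cell cannot be told apart.

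Levels are in TPM, a length-corrected share of a library's transcripts, as deposited, with SDs over the 4 libraries of a group. Differences are log2 differences of scaled TPM after adding 0.1 TPM, with SEs and p-values from limma, and adjusted p-values are over all 17317 genes tested. All 59 members passed the filter on low values (a mean of 0.1 TPM or more over the 16 libraries) and were above 0 in every library. Granule neuron markers, which define the dentate gyrus, were all present, with sums over 8 genes between 962 and 1810 TPM per library. Cdkn2a, the gene that holds the knocked-out exon, was between 0 and 0.586 TPM in p16 WT CTL and between 0 and 0.344 TPM in p16 KO CTL, so its level does not check the labels. Library coverage was between 0.623 and 1.93 of the mean library, and the median coverage of a member was between 16.6 and 47.9 reads per base. The running libraries all had lower coverage than the sedentary ones, between 0.623 and 0.879 in p16 WT RUN and between 0.800 and 0.897 in p16 KO RUN. Libraries 2 of p16 WT CTL and 6 and 7 of p16 KO CTL stood apart in the nuclear RNA Malat1, at 67.1 to 202 TPM against 359 to 856 TPM in the other 13. Results of the members are also given without them. Those fits have fewer libraries in both sedentary groups, and the part of this in a lost threshold was not tested.

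The clusters occupied adjacent stretches of the plus strand in mm10. The alpha members spanned chr18:36930285-37187660, the beta members chr18:37264998-37521419 and the gamma members chr18:37661945-37841872. Of the 15 alpha members 14 ended within 3 bases of each other, and all 22 gamma members ended within 9 bases. The exception was Pcdha7-g, a row that started beside Pcdha7 and ran to the end of the gamma cluster (chr18:36973802-37841872), at a mean of only 0.546 TPM. In GENCODE M21 models, which were found for 58 of the 59 members, the constant exons had 59, 89 and 2712 bases in the alpha cluster. In the gamma cluster they had 59, 89 and 1971 bases, or 1968 in a few models. Constant exons made up 48.6 to 54.9% of an alpha transcript and 41.7 to 45.9% of a gamma transcript.

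Stretches of 150 bases that also occur in another member were counted. They show how much of each transcript a single read of that length could not assign. Reads were paired, and mates were not considered here, so the share for read pairs was not measured. The stretches made up 47.3 to 55.7% of the alpha and 40.1 to 47.0% of the gamma transcripts, nearly all of it in the constant exons. Within the variable exons the share was at most 8.12%, in Pcdha11. Of 22 beta members 18 shared no such stretch, and the highest share was 6.72% in Pcdhb21. Its GENCODE model runs into that of its neighbour Pcdhb22, while the shorter intervals of the deposited tables do not overlap. Identity was compared only between members of the same cluster. The closest pair was Pcdhb6 and Pcdhb8, with 84.1% identity over their variable exons, followed by Pcdha7 and Pcdha8 with 83.1%. The 5 C-type members had the lowest identities to their closest member in the cluster, at most 56.5%. The level of an alpha or gamma member therefore depends on how StringTie divided the constant-exon reads, and that of a beta member much less.

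Gamma members made up most of the clustered protocadherin RNA. Summed over members and averaged over libraries, the gamma cluster held 609 TPM, or 68.6% of the total, the beta cluster 172 TPM or 19.4%, and the alpha cluster 107 TPM or 12.0%. The total per library lay between 788 and 945 TPM. The 5 C-type members alone held 37.8% of the total, the 12 gamma A members 26.9%, the 7 gamma B members 9.10% and the 12 alpha variable members 6.73%. The median member was at 16.3 TPM in the gamma, 6.496 TPM in the beta and 4.67 TPM in the alpha cluster. No gamma member had a mean under 1 TPM, against 1 beta member (Pcdhb1, 0.432 TPM) and 2 alpha members (Pcdha7-g and Pcdha8, 0.619 TPM).

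**Figure D1:**
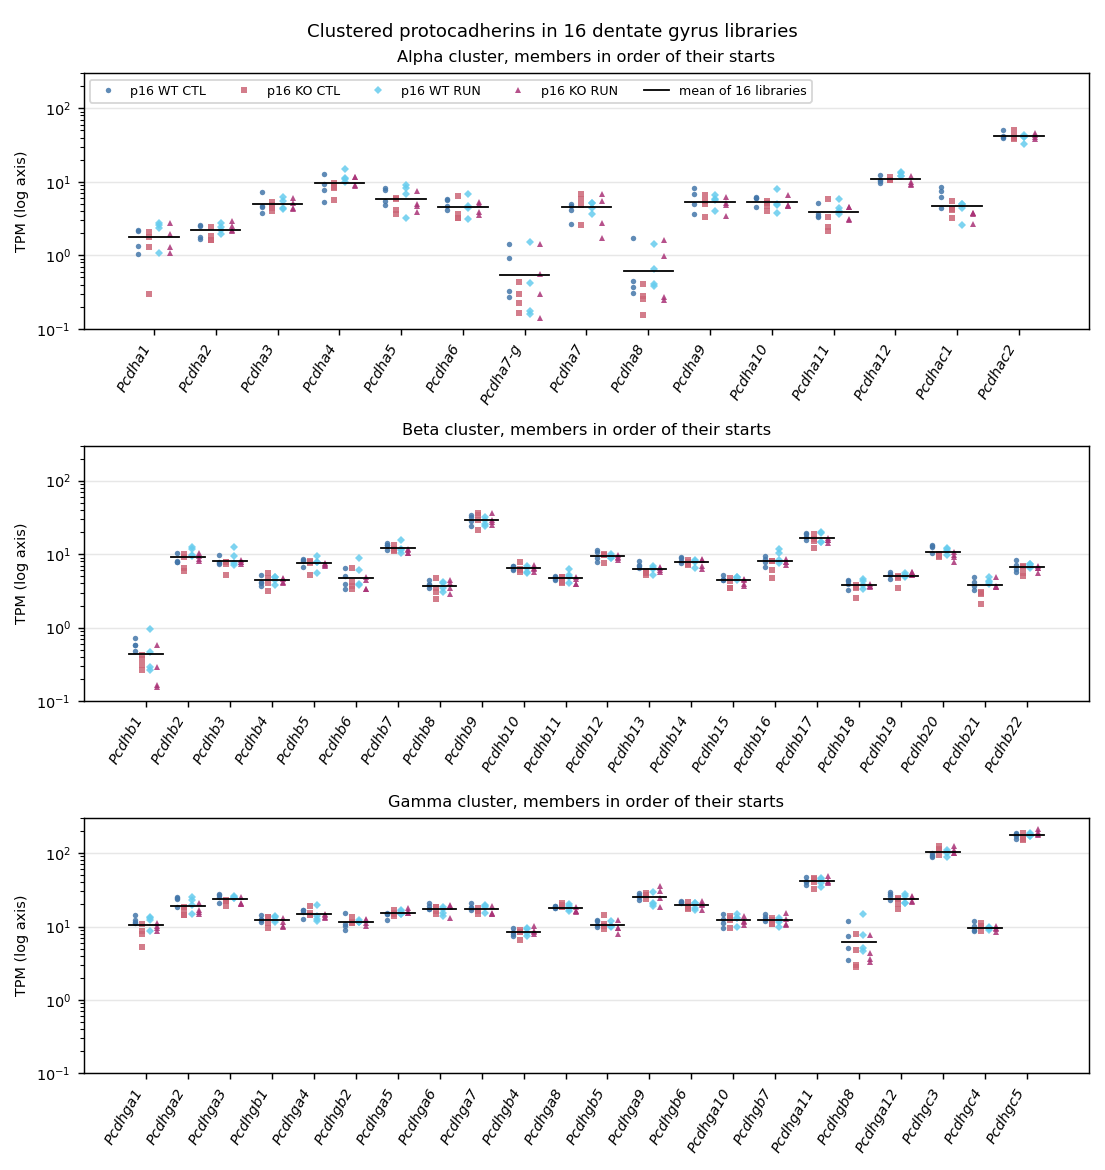
TPM of each of the 59 members (log axis) in the 16 libraries, with 1 panel per cluster and members in order along the chromosome; coloured points are libraries by group and black bars are means over 16 libraries. Pcdhgc5 and Pcdhgc3 lie highest at means of 176 and 103 TPM, and Pcdhb1, Pcdha7-g and Pcdha8 lie below 1 TPM.

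The C-type members were at very different levels. Pcdhgc5, which is known to bind a subunit of the GABA-A receptor, was the highest of all members at a mean of 176 TPM, with 151 TPM in the lowest and 211 TPM in the highest library. Pcdhgc3, known to promote dendrite branching, followed at 103 TPM (88.3 to 125). Pcdhac2, which serotonergic axons need to spread evenly, was at 41.8 TPM (33.0 to 50.9). Pcdhgc4, which interneurons need for survival, was at 9.69 TPM (8.51 to 11.8), and Pcdhac1, the neighbour of Pcdhac2, at 4.67 TPM (2.56 to 8.40). The ranges of Pcdhgc5, Pcdhgc3 and Pcdhac2 did not overlap, while the highest Pcdhac1 library was just below the lowest Pcdhgc4 library. Pcdhgc5 exceeded Pcdhgc3 in all 16 libraries, by 1.31-fold in KO CTL library 7 to 2.03-fold in WT CTL library 1.

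Among the other gamma members Pcdhga11 was highest at 41.3 TPM (32.6 to 48.9), followed by Pcdhga9 at 25.6 TPM (18.7 to 35.1). Pcdhgb8, annotated as a polymorphic pseudogene, was the lowest gamma member at 6.10 TPM. Pcdhb9 was the highest beta member at 29.4 TPM (21.4 to 36.7) and held 17.1% of the beta sum, followed by Pcdhb17 at 16.5 TPM (11.9 to 19.97) and Pcdhb7 at 12.0 TPM (10.3 to 15.6). Pcdhb17 and Pcdhb7 overlapped in range. In the alpha cluster Pcdhac2 was followed by Pcdha12 at 11.1 TPM (9.06 to 13.4) and Pcdha4 at 9.72 TPM (5.31 to 15.1), which also overlapped. The level showed little relation to the place in the cluster, with Spearman's rho across members of 0.37 over 15 alpha, 0.03 over 22 beta and 0.24 over 22 gamma members. Members were measured in the same libraries, and those of the alpha and of the gamma cluster also share constant exons, so they are not independent.

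The alpha members varied more between libraries of the same group than the beta and gamma members did. The SD within groups, on the log2 scale, had a median of 0.354 over the alpha, 0.172 over the beta and 0.169 over the gamma members, against 0.191 over all genes tested. Among members with means between 3 and 30 TPM the medians were 0.354 for 10 alpha, 0.171 for 21 beta and 0.178 for 19 gamma members, the alpha members again being the most variable. The steadiest members were Pcdhgc5 with an SD of 0.09, Pcdhga5 and Pcdhga8 with 0.10 each. The most variable were Pcdha7-g with 0.98, Pcdha8 with 0.88, Pcdha1 with 0.73 and Pcdhgb8 with 0.67.

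Pcdhgb8 spanned 2.83 to 14.9 TPM over the libraries. It measured 3.497, 7.43, 12.0 and 5.11 TPM in p16 WT CTL and 4.82, 3.02, 2.83 and 7.93 TPM in p16 KO CTL. In the running groups it measured 14.9, 7.61, 4.68 and 5.05 TPM in p16 WT RUN and 7.59, 4.32, 3.28 and 3.61 TPM in p16 KO RUN. Its libraries overlapped in all 4 groups.

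**Figure D2:**
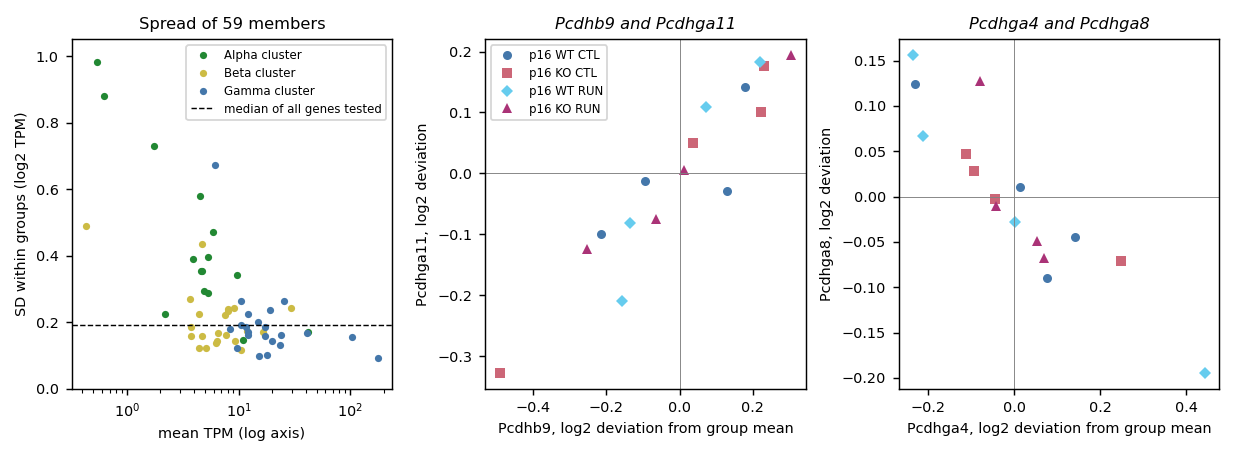
Left, SD within groups (log2 TPM) of each member against its mean TPM (log axis), coloured by cluster, with the median of all genes tested dashed. Middle and right, log2 deviation from the group mean of Pcdhga11 against Pcdhb9 and of Pcdhga8 against Pcdhga4, with 1 point per library (n = 16), which rise together in the middle panel and oppose each other on the right.

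A few pairs of members varied together or oppositely across libraries once the group means were taken out. Over 1711 pairs the median Pearson r was 0.08, and for the 58 pairs of neighbours along the chromosome it was also 0.08. The highest was for Pcdhb9 and Pcdhga11, which lie 30 places apart (r = 0.938, Spearman's rho = 0.929, n = 16 libraries). Without the 2 libraries farthest from the median Pcdhb9 level, r was 0.888, and within the groups of 4 it was between 0.779 and 0.989. These are the highest beta member and the highest gamma member outside the C-type, and no stretch of 150 bases of Pcdhb9 occurs in another member. The adjacent Pcdhb17 and Pcdhb18 followed with r = 0.899. The lowest value was for Pcdhga4 and Pcdhga8 (r = -0.907, rho = -0.929, and -0.876 without the 2 farthest libraries). Within groups it lay between -0.973 and -0.883, but without removing the group means r was -0.192. These 2 members share constant exons but no variable-exon stretch. The pairs were chosen for their values, the points share depth and tissue, and these correlations are descriptions without a test.

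The cluster sums differed little between groups. The alpha sum was 111 ± 7.01 TPM (SD, n = 4 here and below) in sedentary wild type and 102 ± 9.55 TPM in sedentary knockout, against 110.4 ± 5.01 and 104 ± 5.96 TPM in the wild-type and knockout runners. The beta sum was 180.2 ± 12.2, 163 ± 18.1, 179.9 ± 14.5 and 167 ± 6.75 TPM in the same order. The gamma sum was 613 ± 17.96, 594 ± 40.5, 609.9 ± 5.42 and 621 ± 37.2 TPM. Pcdhgc5, its main member, was 173 ± 12.8, 164 ± 16.0, 177 ± 6.85 and 191 ± 14.3 TPM and had no unadjusted p under 0.05 in any comparison. On TPM as deposited the ratio of knockout to wild type in sedentary mice was 0.913 for the alpha, 0.904 for the beta and 0.968 for the gamma sum, while the median of all genes differed by -0.07 on the log2 scale. After scaling, which centres the libraries on that median, these ratios were 0.950, 0.942 and 1.01, so the gamma ratio crossed 1. In runners they were 0.943, 0.927 and 1.02 as deposited and 0.948, 0.933 and 1.02 after scaling. The alpha and beta means were thus lower in the knockout on both scales, with overlapping libraries as deposited. For running against sedentary in the knockout the ratios were 1.03, 1.02 and 1.04 as deposited, where the median of all genes differed by 0.08, and 0.981, 0.980 and 0.999 after scaling, so their direction depended on the scaling. In the wild type all 3 were between 0.983 and 0.999 on either scale. The lowest beta sum was in KO CTL library 7, the library with the least Malat1, on both scales (140.0 TPM as deposited and 152 after scaling).

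Within the gamma cluster the C-type members Pcdhgc3, Pcdhgc4 and Pcdhgc5 held a larger mean share in the knockout. In sedentary mice it was 45.1 ± 0.207% of the gamma sum in the wild type (44.95 to 45.4%) and 48.0 ± 1.46% in the knockout (45.9 to 49.3%). In runners it was 47.1 ± 2.41% in the wild type (44.4 to 49.4%) and 49.7 ± 0.928% in the knockout (48.7 to 50.9%). The genotypes did not overlap in sedentary mice and overlapped in runners, and this share was noticed in the data and not tested.

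**Figure D3:**
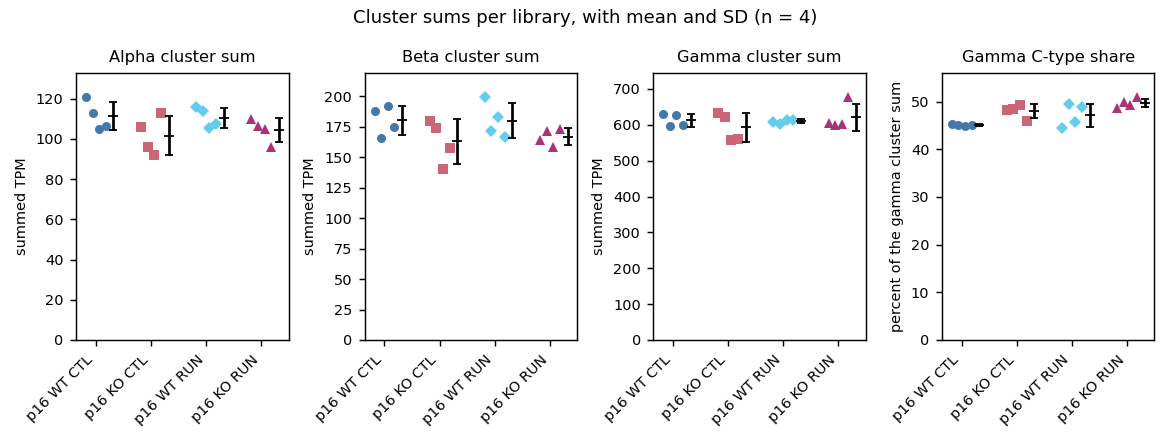
Summed TPM of the alpha, beta and gamma members, and percent of the gamma sum held by Pcdhgc3, Pcdhgc4 and Pcdhgc5, per library (points) in the 4 groups, with mean and SD (black, n = 4). Alpha and beta sums have lower means in both knockout groups, with overlapping libraries.

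The comparison of genotypes asked which members differed between knockout and wild type. In sedentary mice (Set B, the knockout p16 KO CTL minus the wild type p16 WT CTL) 9 of 59 members, or 15.3%, had an unadjusted p under 0.05, against 6.69% of all genes tested. Of these 8 were lower in the knockout, against 3.54% of all genes, and 1 was higher, against 3.15%. None had an adjusted p under 0.05, and neither did any other gene (0.0%), so no member passed the test over all genes. In runners (Set E, p16 KO RUN against p16 WT RUN) 3 members had an unadjusted p under 0.05, all lower, or 5.08% against 3.87% of all genes (1.76% lower and 2.11% higher), and no member had an adjusted p under 0.05 (0.00577% of all genes). The libraries of the groups did not overlap for 4 members in Set B (2.7% of all genes) and for 1 in Set E (2.46%).

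Averaged over running in a fit of all 16 libraries, 10 members, or 16.9%, had an unadjusted p under 0.05 for the genotype, against 7.12% of all genes, with 9 lower in the knockout (3.25% of all genes) and 1 higher (3.87%). No adjusted p was under 0.05 for any gene (0.0%), and the smallest among members was 0.674. The median difference over the members was -0.11, against 0.00 over all genes. It was -0.14 over the alpha, -0.13 over the beta and 0.01 over the gamma members. Negative values were found for 13 of 15 alpha, 19 of 22 beta and 10 of 22 gamma members, against 51% of all genes. All members were measured in the same libraries, and alpha and gamma members also share constant-exon reads, so these counts are not counts of independent results.

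**Figure D4:**
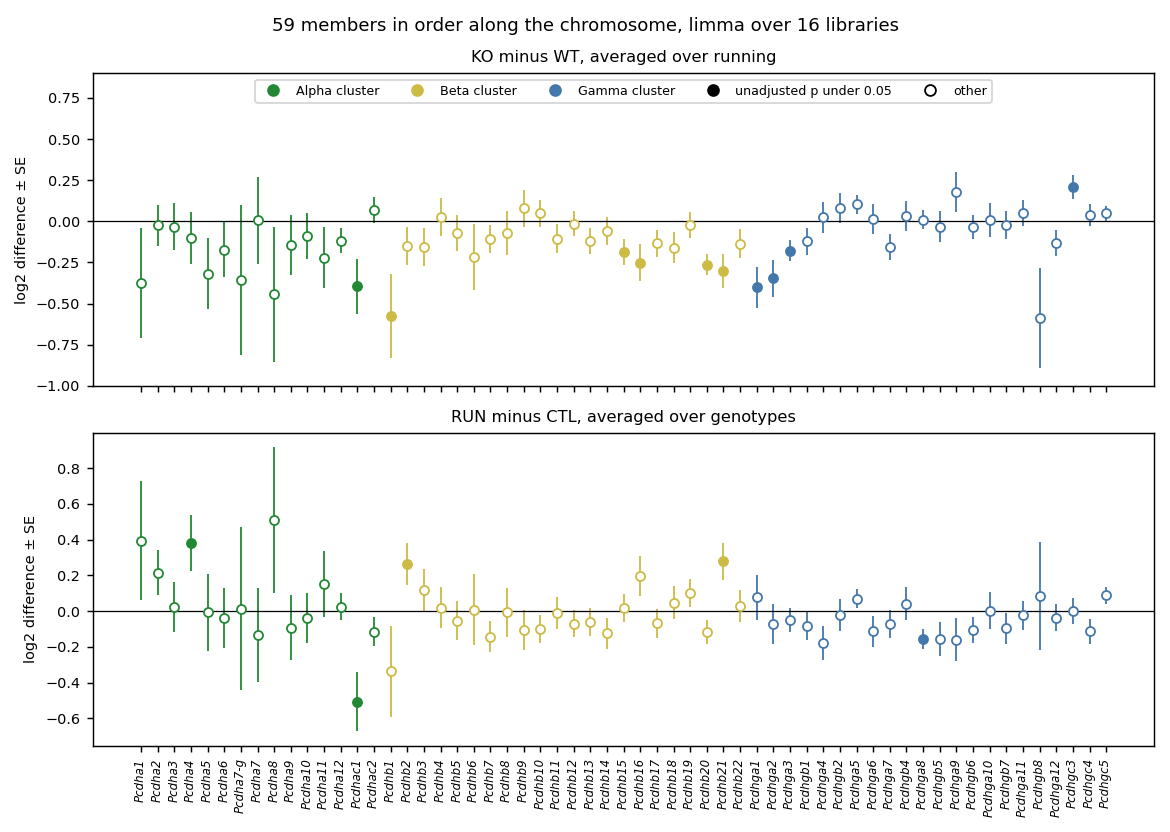
Log2 difference with SE of each of the 59 members between knockout and wild type averaged over running (top) and between running and sedentary averaged over genotypes (bottom), in order along the chromosome and coloured by cluster; filled points had an unadjusted p under 0.05. In the top panel Pcdhb20, Pcdhb21, Pcdhga1, Pcdhga2 and Pcdhga3, at the border of the beta and gamma clusters, are filled and below 0. Pcdhb22, which lies between Pcdhb21 and Pcdhga1, is not filled.

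Of the 6 members with the smallest averaged p for the genotype, all but Pcdhgc3 lay at the end of the beta and the start of the gamma cluster, which was noticed in the data and not tested. Pcdhb22, which lies between Pcdhb21 and Pcdhga1, missed the threshold at -0.14 (SE 0.09, unadjusted p = 0.145). Pcdhb20 (chr18:37504264-37507661) measured 12.4, 10.2, 13.2 and 12.9 TPM in p16 WT CTL and 10.2, 9.63, 9.10 and 9.56 TPM in p16 KO CTL. In runners it measured 12.2, 9.83, 11.8 and 11.2 TPM in p16 WT RUN and 9.74, 9.23, 7.94 and 10.6 TPM in p16 KO RUN. The knockout libraries were lower, without overlap in sedentary mice after scaling and with overlap in runners. The log2 difference was -0.27 (SE 0.09, unadjusted p = 0.0146, adjusted p = 0.625) in Set B, -0.26 (SE 0.10, unadjusted p = 0.0344) in Set E and -0.26 (SE 0.07, unadjusted p = 0.00109, adjusted p = 0.674) averaged over running. The averaged p stayed under 0.05 without any of the 16 libraries in turn, whereas in Set E it did not without library 9, 11, 12, 14 or 15 (log2 difference -0.31 to -0.18 over the 8 fits).

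Pcdhga1 (chr18:37661945-37841870), the first gamma variable exon, measured 14.4, 11.0, 12.4 and 11.5 TPM in p16 WT CTL and 8.82, 7.97, 5.32 and 10.9 TPM in p16 KO CTL. In runners it measured 13.6, 12.4, 13.0 and 8.69 TPM in p16 WT RUN and 8.69, 10.1, 9.43 and 11.1 TPM in p16 KO RUN. Knockout values were mostly lower, with KO CTL library 7 lowest of all. The log2 difference was -0.55 (SE 0.19, unadjusted p = 0.0176) in Set B, which no longer met the 0.05 threshold without library 1 (-0.69 to -0.38 over the 8 fits without a library), and -0.40 (SE 0.12, unadjusted p = 0.00558) averaged over running. In Set E it was -0.25 (SE 0.14, unadjusted p = 0.113), which missed the threshold. Without libraries 2, 6 and 7 the Set B value was -0.33 and missed the threshold, and the averaged value was -0.29 and met it.

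Its neighbour Pcdhga2 (chr18:37669105-37841870) measured 24.8, 24.9, 24.0 and 18.2 TPM in p16 WT CTL and 16.7, 14.2, 14.6 and 18.5 TPM in p16 KO CTL. In runners it measured 22.7, 19.9, 25.0 and 14.9 TPM in p16 WT RUN and 15.0, 20.8, 16.9 and 16.0 TPM in p16 KO RUN. Of the p16 WT CTL libraries only library 4 lay within the p16 KO CTL range. In Set B the log2 difference was -0.45 (SE 0.13, unadjusted p = 0.00748, the smallest of Set B among the members). It was -0.35 (SE 0.11, unadjusted p = 0.00645) averaged over running. In Set E it was -0.24 (SE 0.16, unadjusted p = 0.169), which missed the threshold. The next gamma member, Pcdhga3, was 25.3 ± 2.95 TPM in wild-type and 21.7 ± 1.64 TPM in knockout sedentary mice, and 24.9 ± 0.911 and 21.6 ± 2.21 TPM in the respective runners. Its log2 difference was -0.15 in Set B (unadjusted p = 0.185), -0.20 in Set E (unadjusted p = 0.0193) and -0.18 averaged (unadjusted p = 0.0153). In Set E it no longer met the threshold without library 14 or 15 (log2 difference -0.27 to -0.18 over the 8 fits), and the averaged value was lost without libraries 2, 6 and 7 (-0.13).

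Pcdhb21 (chr18:37513652-37516363) measured 4.17, 3.25, 4.89 and 3.72 TPM in p16 WT CTL and 3.04, 2.83, 2.11 and 2.93 TPM in p16 KO CTL. In runners it measured 4.21, 4.92, 4.27 and 3.87 TPM in p16 WT RUN and 4.82, 3.62, 3.73 and 3.60 TPM in p16 KO RUN. The p16 KO CTL libraries were the lowest, without overlap with either sedentary wild-type or running knockout libraries. Knockout minus wild type was -0.48 (SE 0.17, unadjusted p = 0.0185) in Set B, -0.13 (SE 0.14, unadjusted p = 0.383) in Set E and -0.30 (SE 0.10, unadjusted p = 0.0105) averaged over running. In Set B it did not meet the threshold without library 3 or 7 (-0.55 to -0.38 over the 8 fits), or without libraries 2, 6 and 7 (-0.45). A two-sided exact permutation test of Set B gave p = 0.0286 for Pcdhb21, Pcdhb20, Pcdhb13 and Pcdhb1, the smallest that 4 against 4 libraries allow. These members are those without overlap in Set B (2.7% of all genes), which by itself fixes the exact p at this value. For the other members of Set B with an unadjusted limma p under 0.05, the exact p was above 0.05. It was 0.0571 for Pcdhga1, Pcdhga2 and Pcdhgc3, 0.114 for Pcdhac1 and 0.143 for Pcdhga12.

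Pcdhgc3 was the only member with an unadjusted p under 0.05 and a higher value in the knockout. It measured 91.2, 102, 93.2 and 88.3 TPM in p16 WT CTL and 110.5, 125, 115 and 93.5 TPM in p16 KO CTL. In runners it measured 89.1, 109, 101 and 104 TPM in p16 WT RUN and 101, 100.3, 110.0 and 123 TPM in p16 KO RUN. The groups overlapped in both pairs. Knockout minus wild type was 0.30 (SE 0.11, unadjusted p = 0.0231) in Set B, 0.11 (SE 0.08, unadjusted p = 0.213) in Set E and 0.21 (SE 0.07, unadjusted p = 0.0123) averaged. In Set B it was lost without library 1, 3, 4, 6 or 7 (0.23 to 0.39 over the 8 fits), and the averaged p stayed under 0.05 without each of the 16.

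Pcdhac1 measured 8.40, 7.59, 6.25 and 4.47 TPM in p16 WT CTL and 5.47, 3.20, 4.12 and 4.32 TPM in p16 KO CTL. In runners it measured 5.01, 4.34, 5.02 and 2.56 TPM in p16 WT RUN and 3.75, 3.82, 2.68 and 3.67 TPM in p16 KO RUN. The sedentary wild type had the highest mean, its library 4 overlapped with p16 KO CTL and p16 WT RUN, and all p16 KO RUN libraries lay below it. The genotype difference was -0.56 (SE 0.23, unadjusted p = 0.0386) in Set B and -0.40 (SE 0.17, unadjusted p = 0.0319) averaged over running. In Set E it was -0.23 (SE 0.22, unadjusted p = 0.325), which missed the threshold. In Set B it kept p under 0.05 only without library 4 or library 5, and averaged it lost it without library 1, 2, 6, 9, 10, 11 or 15 (-0.75 to -0.43 and -0.50 to -0.33). Without libraries 2, 6 and 7 both were lost, at -0.30 and -0.27, and with quantile normalization also, at -0.47 and -0.36. In Set B it was lost with no filter on low values too.

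**Figure D5:**
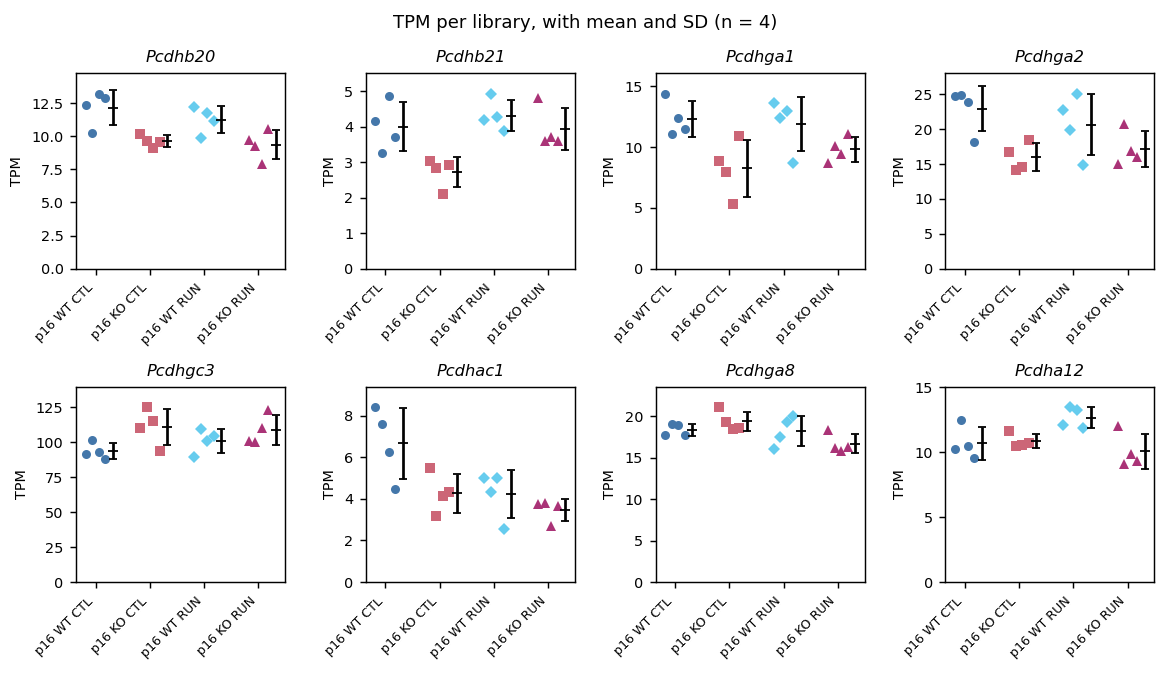
TPM of Pcdhb20, Pcdhb21, Pcdhga1, Pcdhga2, Pcdhgc3, Pcdhac1, Pcdhga8 and Pcdha12 in each library (points, y axes from 0) of the 4 groups, with mean and SD (black, n = 4). Pcdhb20, Pcdhga1 and Pcdhga2 have lower means in both knockout groups, Pcdhgc3 higher ones, and Pcdhac1 is highest in p16 WT CTL.

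Pcdhb1, the lowest beta member, was 0.592 ± 0.0980 TPM in p16 WT CTL and 0.344 ± 0.0702 TPM in p16 KO CTL, without overlap. Its log2 difference in Set B was -0.60 (SE 0.24, unadjusted p = 0.0358), which at this level depends on the 0.1 TPM added: over the planned settings it lay between -0.71 and -0.23, and it missed the threshold with quantile normalization (-0.41), in the fit of all 16 libraries and without libraries 2, 6 and 7 (-0.51). Without library 1, 3, 4, 6 or 7 the threshold was not met (-0.66 to -0.51). Averaged over running, Pcdhb1, Pcdhb15 and Pcdhb16 also had an unadjusted p under 0.05 at -0.57, -0.19 and -0.25. These were lost without library 1, 3, 4, 6, 7, 9, 11, 14 or 15 for Pcdhb1 (-0.72 to -0.42), 1, 6, 7, 11, 12, 15 or 16 for Pcdhb15 (-0.22 to -0.16) and 1, 4, 7, 8, 9, 11, 15 or 16 for Pcdhb16 (-0.31 to -0.19). In Set B so did Pcdhb13 and Pcdhga12, at -0.27 and -0.26. They were lost without any library but 3 for Pcdhb13 (-0.33 to -0.20) and without 1, 3, 4, 7 or 8 for Pcdhga12 (-0.33 to -0.18). Pcdhb13 was also lost with 1 TPM added (-0.24) and without libraries 2, 6 and 7 (-0.22), and Pcdhga12 with no filter and with no variance trend (-0.26 in both). Without libraries 2, 6 and 7 the averaged values of Pcdhb1 and Pcdhb15 were lost too (-0.53 and -0.12). With quantile normalization all 5 were lost, at -0.51 for Pcdhb1, -0.15 for Pcdhb15, -0.21 for Pcdhb16, -0.20 for Pcdhb13 and -0.22 for Pcdhga12. Pcdhb15, Pcdhb16, Pcdhb13 and Pcdhga12 were chosen after their values were seen.

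The number of members in Set B depended on libraries: it was 4 without library 1, 5 without library 4 and 3 without library 7, in place of 9. Without libraries 2, 6 and 7 it was 4, against 6.68% of all genes, and 5 averaged over running, against 6.48%. Pcdhb20, Pcdhgc3 and Pcdhga12 in Set B, and Pcdhb20, Pcdhb21, Pcdhga1, Pcdhgc3 and Pcdhb16 averaged, kept an unadjusted p under 0.05 without these 3 libraries. Pcdhb20 then measured -0.33 in Set B and -0.30 averaged, and Pcdhga2 no longer met the threshold at -0.29 and -0.27. Pcdhgc3 then measured 0.20 in Set B and 0.16 averaged, in place of 0.30 and 0.21. Sets B and E share no library. Of the 9 members of Set B, 8 had the same sign in Set E (88.9%, against 59.7% of the 1158 genes of Set B and 71.2% of all 59 members), and 1 of them, Pcdhb20, also had an unadjusted p under 0.05.

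Other RNA lists also differed in their medians between the sedentary genotype groups, with few or none of their genes at an unadjusted p under 0.05. The 9 nuclear RNAs of a fixed list had a median difference of -0.87 in Set B, with 9 of 9 lower and none at an unadjusted p under 0.05, and sums of 1151 to 2710 TPM in p16 WT CTL and 637 to 2262 TPM in p16 KO CTL. The 8 oligodendrocyte markers were at a median of 0.38, with 8 of 8 higher and 1 at an unadjusted p under 0.05, and sums of 1033 to 2117 and 1527 to 2536 TPM. The 8 granule neuron markers had a median of -0.20, with 7 of 8 lower, none at an unadjusted p under 0.05, and sums of 1109 to 1810 and 962 to 1405 TPM. Of the other marker lists, microglia (8 of 8 genes, 2 at an unadjusted p under 0.05), CA1 pyramidal neurons (4 of 4, none), astrocytes (7 of 8, 1) and GABAergic interneurons (7 of 8, 2) were higher. Their medians were 0.20, 0.51, 0.22 and 0.15. Their sums were 482 to 573 against 483 to 686, 144 to 181 against 152 to 358, 2105 to 2700 against 2101 to 3145 and 989.8 to 1567 against 1161 to 1459 TPM, overlapping in each list. Endothelial markers were lower (6 of 6, none, median -0.22, 92.1 to 128 against 64.1 to 128 TPM), and so were markers of newborn neurons (5 of 5, none, median -0.15, 57.7 to 94.0 against 53.6 to 86.7 TPM). Choroid plexus (5 of 6, none, median 0.34, 27.1 to 52.6 against 30.1 to 213 TPM) and oligodendrocyte precursors (3 of 4, 1, median 0.23, 59.4 to 68.6 against 68.4 to 73.8 TPM) were higher. Of all genes 6.69% had an unadjusted p under 0.05 in Set B, and 52.2% had a negative difference. No marker of these lists was at 0 in all libraries. The part of these RNAs in the members' differences was not tested.

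The comparison of running with sedentary mice asked which members differed after exercise. In the knockout (Set A, p16 KO RUN against p16 KO CTL) 3 of 59 members, or 5.08%, had an unadjusted p under 0.05, against 18.5% of all genes, with 1 higher (10.7% of all genes) and 2 lower (7.74%). In the wild type (Set C, p16 WT RUN against p16 WT CTL) 3 members, or 5.08%, did so, against 4.81% of all genes, with 1 higher (2.69%) and 2 lower (2.13%). No member had an adjusted p under 0.05 in either, against 0.0173% of all genes in Set A and 0.0% in Set C. Groups did not overlap for 4 members in Set A (10.4% of all genes) and 1 in Set C (3.34%). In both sets the share of members was thus near or below that of all genes.

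Averaged over genotypes, 5 members, or 8.47%, had an unadjusted p under 0.05, against 17.9% of all genes, with 3 higher (9.87% of all genes) and 2 lower (8.02%). None had an adjusted p under 0.05, against 0.751% of all genes, and the smallest was 0.1504, for Pcdhac1. The median over the members was -0.02 against 0.01 over all genes, with 0.01 over the alpha, -0.01 over the beta and -0.06 over the gamma members.

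Averaged over genotypes, Pcdhac1 had the smallest p of the members for running, with lower values in runners. Running minus sedentary was -0.67 (SE 0.27, unadjusted p = 0.0325, adjusted p = 0.985) in Set C, -0.34 (SE 0.18, unadjusted p = 0.0903) in Set A and -0.51 (SE 0.17, unadjusted p = 0.00840) averaged over genotypes. The averaged value stayed between -0.60 and -0.40 with p under 0.05 without each of the 16 libraries, and was -0.54 without libraries 2, 6 and 7. In Set C it was lost without library 1, 2 or 12 (-0.86 to -0.45), without libraries 2, 6 and 7 (-0.57) and with no filter on low values. Pcdhac2, the C-type neighbour, was 43.4 ± 5.07 TPM in wild-type and 42.5 ± 5.49 TPM in knockout sedentary mice, and 39.4 ± 4.43 and 42.0 ± 3.57 TPM in the respective runners, with no unadjusted p under 0.05.

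Pcdhga8 (chr18:37725706-37841872) had the smallest p of Set A among the members. It measured 21.0, 19.3, 18.5 and 18.6 TPM in p16 KO CTL and 18.4, 16.2, 15.8 and 16.3 TPM in p16 KO RUN, so that all running libraries were lower. In the wild type it measured 17.7, 19.0, 18.9 and 17.7 TPM in p16 WT CTL and 16.0, 17.4, 19.3 and 20.02 TPM in p16 WT RUN, and these overlapped. The log2 difference was -0.28 (SE 0.07, unadjusted p = 0.00324, adjusted p = 0.161) in Set A and -0.03 (SE 0.09, unadjusted p = 0.764) in Set C. The Set A value stayed between -0.32 and -0.26 with p under 0.05 without each of the 8 libraries. Averaged over genotypes it was -0.16 (SE 0.06, unadjusted p = 0.0139), which was lost at -0.12 on TPM as deposited and at -0.13 without libraries 2, 6 and 7. Pcdhga4, which opposed Pcdhga8 across libraries, was also lower in p16 KO RUN at -0.23 (SE 0.10, unadjusted p = 0.0387), which was lost without library 7, 8, 13, 14 or 16 (-0.27 to -0.15), on TPM as deposited (-0.17) and in the fit of all 16 libraries.

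Pcdhb21, lower in p16 KO CTL as given above, was higher in runners, with 0.45 (SE 0.16, unadjusted p = 0.0185, adjusted p = 0.219) in Set A, 0.10 (SE 0.15, unadjusted p = 0.510) in Set C and 0.28 (SE 0.10, unadjusted p = 0.0166) averaged. In Set A it was lost without library 13 (0.36), without libraries 6 and 7 (0.36) and with quantile normalization (0.31). The averaged value was lost without libraries 2, 6 and 7 (0.20) and with quantile normalization (0.19). Sets A and B share the p16 KO CTL libraries.

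Pcdhb2 measured 7.71, 7.77, 10.4 and 8.08 TPM in p16 WT CTL and 12.6, 11.9, 9.58 and 9.72 TPM in p16 WT RUN, which overlapped through library 3. In the sedentary and running knockout groups it was 7.95 ± 2.10 and 9.21 ± 0.994 TPM. Running minus sedentary was 0.35 (SE 0.14, unadjusted p = 0.0284) in Set C and 0.26 (SE 0.12, unadjusted p = 0.0374) averaged. The first was lost without library 1, 2, 4, 9 or 10 (0.29 to 0.44), and the second without these or library 7, 8, 13 or 14 (0.21 to 0.33) or with quantile normalization (0.23). Without libraries 2, 6 and 7 the Set C value was lost (0.34) and the averaged value was not (0.28). Pcdha4 was 8.76 ± 3.08 and 11.8 ± 2.30 TPM in the wild type and 8.04 ± 1.73 and 10.3 ± 1.63 TPM in the knockout, sedentary and running in each. Its averaged log2 difference was 0.38 (SE 0.16, unadjusted p = 0.0290). It was lost without library 1, 3, 7, 11, 14 or 15 (0.27 to 0.47), and at 0.35 without libraries 2, 6 and 7. Pcdhgb6 was 21.5 ± 0.767 and 19.0 ± 2.09 TPM in p16 WT CTL and p16 WT RUN, with a log2 difference of -0.19 in Set C (SE 0.08, unadjusted p = 0.0419), lost without any of libraries 1, 2, 3, 4, 10 and 12 (-0.24 to -0.15), on TPM as deposited (-0.18), in the fit of all 16 libraries and without the 3 libraries low in Malat1 (-0.17).

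The count of Set A was 5 without library 5, and that of Set C was 0 without library 1 and 1 without library 2 or 10. The count of Set E was 6 without library 12 or 13, and that averaged over genotypes 3 without library 7. Without libraries 2, 6 and 7 the counts were 3 in Set A (8.49% of all genes), 1 in Set C (5.88%), which was none of the 3 members of the full set, and 3 averaged over genotypes (9.29%). The nuclear RNA list had a median of 0.99 in Set A, with 8 of 9 higher. At an unadjusted p under 0.05, 2 were higher and 1 lower. Its sums were 637 to 2262 TPM in p16 KO CTL and 2096 to 2482 TPM in p16 KO RUN. In Set C its median was 0.19, with 8 of 9 higher and none at an unadjusted p under 0.05, against 4.81% of all genes. The oligodendrocyte list had a median of -0.38 in Set A, with 7 of 8 lower, 4 of them at an unadjusted p under 0.05, and sums of 1527 to 2536 against 1212 to 1563 TPM. Astrocytes (8 of 8, 2 at an unadjusted p under 0.05, median -0.27, 2101 to 3145 against 2125 to 2535 TPM), microglia (8 of 8, 2, -0.29, 483 to 686 against 447 to 535 TPM) and CA1 neurons (4 of 4, none, -0.33, 152 to 358 against 161 to 211 TPM) were also lower. Endothelium (6 of 6, 1, median 0.49, 64.1 to 128 against 109.6 to 163 TPM) and newborn neurons (5 of 5, 2, median 0.15, 53.6 to 86.7 against 66.5 to 82.5 TPM) were higher. Granule neurons had 6 of 8 higher (1 at an unadjusted p under 0.05, median 0.28), and their sums of 962 to 1405 TPM in p16 KO CTL lay below those of 1407 to 1777 TPM in p16 KO RUN. Meninges and fibroblasts had 4 of 6 higher (1, median 0.37, 24.7 to 51.6 against 23.2 to 58.4 TPM). Of all genes 18.5% had an unadjusted p under 0.05 in Set A, and 46.8% had a negative difference. Their part in the members' values was not tested. Sets A and C share no library, and the 3 members of Set A had the same sign in Set C, as did 75.6% of the 3196 genes of Set A.

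Whether the response to running differed between genotypes was tested by the interaction. Here 2 members, or 3.39%, had an unadjusted p under 0.05, against 5.48% of all genes, both with a lower value (2.54% of all genes, and 2.95% higher) and no adjusted p under 0.05 for any gene (0.0%). Pcdha12 (chr18:37020230-37187657) measured 10.3, 12.5, 10.5 and 9.54 TPM in p16 WT CTL and 12.1, 13.4, 13.2 and 11.8 TPM in p16 WT RUN. In the knockout it measured 11.6, 10.5, 10.6 and 10.7 TPM in p16 KO CTL and 12.0, 9.06, 9.85 and 9.32 TPM in p16 KO RUN. Running libraries were thus mostly above sedentary ones in the wild type, and in the knockout 3 of 4 were below them.

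The interaction of Pcdha12 was -0.41 (SE 0.15, unadjusted p = 0.0158, adjusted p = 0.797), made of 0.23 (unadjusted p = 0.0798) in Set C and -0.18 (unadjusted p = 0.107) in Set A. Its p stayed under 0.05 without each of the 16 libraries (-0.51 to -0.35), and the difference in runners, Set E, was -0.33 (SE 0.10, unadjusted p = 0.0104, adjusted p = 1.00). The interaction of Pcdhga8 was -0.25 (SE 0.11, unadjusted p = 0.0386). It was lost without library 1, 3, 4, 5, 6, 7, 11, 12, 14, 15 or 16 (-0.32 to -0.20), at -0.20 on TPM as deposited and at -0.28 without libraries 2, 6 and 7. The interaction count was 1 without library 4, 5, 6, 7, 11, 12, 15 or 16, and also 1 without libraries 2, 6 and 7 (7.25% of all genes). Interaction medians of marker lists were -0.54 for oligodendrocytes (8 of 8 negative, 1 at an unadjusted p under 0.05). They were -0.58 for CA1 neurons (4 of 4, 1), and -0.24 for astrocytes and -0.21 for microglia (8 of 8 each, none). Granule neurons were at 0.26 (8 of 8 positive, none) and newborn neurons at 0.28 (5 of 5, 1). Nuclear RNA was at 0.85 (8 of 9, none). Of all genes 47% were negative. The part of these lists in the members' values was not tested.

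The non-clustered protocadherins, relatives that lie elsewhere and have complete genes of their own, were compared in the same fits. Of 12 genes, 5 were higher at an unadjusted p under 0.05 averaged over genotypes (9.87% of all genes) and none lower, with a median of 0.18. Pcdh8, a protocadherin induced by neuronal activity, rose by 0.53 (SE 0.11, adjusted p = 0.0488), from 106 to 137 TPM in the wild type and from 98.5 to 161 TPM in the knockout. Whether this value holds without single libraries, or without the sedentary libraries low in Malat1, was not examined. Pcdh1 (0.19), Pcdh7 (0.29), Pcdh17 (0.25) and Pcdh12 (0.67, at 0.215 TPM) had unadjusted p-values under 0.05. In Set B 1 of the 12 was higher, Pcdh9, at 0.31 (unadjusted p = 0.00164), which is 8.33% of the list against 6.69% of all genes.

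Of 23 genes of the insulator, cohesin and promoter silencing machinery that acts on the clusters, 22 were tested. Averaged over genotypes 5 were higher and 1 lower with running at an unadjusted p under 0.05, none with an adjusted p under 0.05. This is 27.3% of the list, against 17.9% of all genes. For the genotype none had an unadjusted p under 0.05, against 7.12%. In Set A 4 of the 22 did (18.2%, against 18.5% of all genes). Of these the DNA methyltransferase Dnmt3a was higher by 0.40, the demethylating enzyme Tet3 by 0.41 and the cohesin loader subunit Mau2 by 0.27. In Set C Lrif1 was at -0.27, the only gene of the list with an unadjusted p under 0.05 there (4.55%, against 4.81% of all genes). Of 25 binding partners and signalling genes, 4 were higher and 1 lower with running averaged over genotypes, or 5 of 25 against 17.9% of all genes, and 2 were lower for the genotype, or 8.0% against 7.12%. Both shares were near those of all genes. Among them the focal adhesion kinase Ptk2 was at 0.20 and the adhesion molecule Dscam at 0.26 in Set A. Abi2, of the WAVE complex, was at 0.92 and the gamma-secretase subunit Ncstn at -0.15 in Set B, Abi1 at 0.48 in Set C, and Psen2 at -0.21 in Set E. Set C also had 1 lower gene, not named here. In Sets A, B and C 8% of this list had an unadjusted p under 0.05, against 18.5%, 6.69% and 4.81% of all genes. In Set E it was 4% against 3.87%. No member of these 2 lists had an adjusted p under 0.05.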

How the data were processed

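The clustered protocadherins were read from tables that the authors made by aligning paired reads to mm10 with STAR and estimating abundances with StringTie, after bcl2fastq 2.20 and cutadapt 1.11 (versions per the submitters' processing notes). The deposited TPM values are StringTie abundances corrected for length. The FPKM values deposited beside them served as an alternative, and the deposited coverage (signal per base) served for depth. The tables hold no counts, so limma took the place of the study's count test, and the counting error of a gene is not known.

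TPM was summed where a gene name occurred more than once in a table, which no member did. A scale factor per library, the median ratio to the average of all libraries, came from 13226 genes that reached 1 TPM in all 16. The fits used limma 3.58.1 (R 4.3.3) on log2 of scaled TPM plus 0.1, for genes averaging 0.1 TPM or more (empirical Bayes, variance trend, two-sided, Benjamini-Hochberg over 17317 genes). Sets A, B, C and E used the 8 libraries of their groups, and the averages and the interaction all 16. The comparison of p16 KO RUN with p16 WT CTL was not analysed here. Exact permutation tests used all 70 divisions of 8 libraries. The procedure was tested on simulated data. Gene models were GENCODE M21, read with Python 3.11.15 and Biopython 1.88.

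Members and lists were chosen with earlier results of these data known. Named in the text were, per cluster, the 3 highest members and the lowest, the 5 C-type members, per comparison up to 5 members of smallest p under 0.05, and of each other list up to 3 such genes, of which 1 is not reported here. Members named outside this rule are marked or serve the structure and spread. Alternatives were other filters, pseudocounts, scalings, FPKM, fits, the highest entry per name and leaving out each library, and, chosen after seeing the data, leaving out 3 libraries low in Malat1. Labels give separate pools as replicates and name no batch.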

Additional observations from a re-analysis of the deposited data

Results flagged for a closer look

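Within groups of 4, a member was looked at more closely where its highest or lowest library lay apart from the other 3 by Dixon's 95% criterion. Of 120 groups (27 members and 3 cluster sums in 4 groups) 9 did so, or 7.5%, and chance gives about 5%. The gamma sum of KO RUN library 16 was 676 TPM against 599 to 604 TPM in the other 3. In KO RUN library 13, Pcdhb21 was 4.82 TPM (others 3.60 to 3.73), Pcdhga3 24.9 TPM (others 20.2 to 20.9) and Pcdhga8 18.4 TPM (others 15.8 to 16.3). Pcdhac1 was 2.68 TPM in KO RUN library 15 (others 3.67 to 3.82), and Pcdhga3 was 19.3 TPM in KO CTL library 7 (others 22.3 to 22.7). In p16 WT CTL, Pcdhb15 was 5.15 TPM in library 1 (others 4.46 to 4.55), Pcdhb2 10.4 TPM in library 3 (others 7.71 to 8.08) and Pcdhga2 18.2 TPM in library 4 (others 24.0 to 24.9).

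An interaction test of genotype and running gave unadjusted p-values of 0.0158 for Pcdha12, at -0.41 on the log2 scale, and 0.0386 for Pcdhga8, at -0.25. With Benjamini-Hochberg adjustment in limma both were 0.797. An unadjusted p under 0.05 was found for 3.39% of the members and 5.48% of all genes. Pcdha12 kept its unadjusted p under 0.05 without each library, while Pcdhga8 lost it in 11 of 16 such fits, on TPM as deposited (-0.20) and without the 3 libraries low in Malat1 (-0.28).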

How the results depend on the processing

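The number of members with an unadjusted p under 0.05 depended on the processing, and no setting gave a member an adjusted p under 0.05. With quantile normalization it was 6 in Set A (main 3) and 5 in Set B (main 9). Without the 3 libraries low in Malat1 it was 4 in Set B, 1 in Set C, 3 for running averaged, 5 for genotype averaged and 1 for the interaction. Leaving out each library in turn gave 2 to 5 in Set A, 3 to 9 in Set B, 0 to 4 in Set C, 2 to 6 in Set E, 3 to 7 for running, 7 to 13 for genotype and 1 to 3 for the interaction. The cause was not tested, beyond fewer libraries in each fit. Of 35 values of named members none turned its sign in any setting, and 19 kept an unadjusted p under 0.05 in every planned setting and 14 without each library. Of 331 such fits 23 lost it, and of 416 that left out a library 115. The 35 values were chosen for an unadjusted p under 0.05, and every setting kept most of the libraries. That no sign turned therefore does not show that they were stable. None of 153 medians over the members moved by more than the replicate SD of 0.117 on the log2 scale. This SD is about as large as the genotype medians themselves, so the check does not show that they were stable. The ratios of cluster sums, taken on TPM as deposited, moved by less than the replicate spread. Scaling turned the Set A ratios from above to below 1 (alpha 0.981, beta 0.980, gamma 0.999) and the Set B gamma ratio from 0.968 to 1.01. No paired analysis was possible because each replicate number belongs to a single group. The tables keep no read counts, so the counting error per gene cannot be stated. The 3 members with means under 1 TPM had low coverage. Its mean was 1.53 reads per base for Pcdha7-g, 1.94 for Pcdha8 and 1.26 for Pcdhb1. In their lowest libraries it was 0.290, 0.626 and 0.363 in the same order.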
